A study of Homo sapiens with 372 samples.

Results

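Paclitaxel given to A2780 cells for 48 h was compared with the untreated control. The members were every cell of the 48 h paclitaxel condition, 53 of the 338 single cells of the series, and they were set against the 46 control cells. All 9664 genes of the expression table were read, and the 9201 genes that more than 30% of the cells in at least one of the groups expressed above 0 were compared. A2780 is an established line of human ovarian endometrioid adenocarcinoma. The treated cells received paclitaxel at 5 nM alone, and the control cells received neither paclitaxel nor celecoxib, the other drug of the series, and have no time in the labels.

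Paclitaxel binds the β-tubulin subunit of microtubules and stabilises them, so that the mitotic spindle cannot be assembled and taken apart normally. Cells then stall in mitosis under the spindle checkpoint, die there, or leave mitosis without dividing properly, and many of those that leave stop cycling. Arrest after such a failed mitosis is classically tied to p53 and its target CDKN1A, the inhibitor p21 of cyclin-dependent kinases.

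Single cells were captured on the Fluidigm C1 system and each was made into a full-length Smart-seq2 library with 3 spike-in RNAs. Expression was given as an E-value, the log2 of N/10 + 1. Here N stands for the TPM of a gene after normalization to the most abundant of the spike-in RNAs. Each condition was 1 capture run, and the labels name no replicate cultures. The drug, the culture and the run therefore cannot be told apart, the cells are not replicates, and no p-value or standard error was made. A gene was called higher or lower when its mean E-value over the treated cells differed from that over the control cells by more than 1.5-fold, a log2 difference of 0.58. Reads per cell are unknown. The number of genes detected had a median of 6630 in control cells, from 4746 to 7854, and of 6351 at 48 h, from 4751 to 7854.

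Of 19 genes listed as markers of epithelial cells or of the line, 2 were in the table, and only VIM, vimentin, a mesenchymal filament protein, was compared, so the identity of the line could be checked on little. VIM had a mean E-value of 3.70 ± 2.45 in control cells and 3.39 ± 2.37 at 48 h (SD over cells, n = 46 and 53). Of 20 markers of blood, stromal and endothelial cells, 4 were in the table and 2 were compared. COL3A1, a fibrillar collagen, was at 1.86 ± 1.43 and 1.69 ± 1.41, and LYZ, lysozyme, at 0.15 ± 0.27 and 0.19 ± 0.23 in the same order. None of these 3 genes passed the limit on either scale.

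The summed transcript level per cell was lower after 48 h of paclitaxel. The median total of the control cells was 1.56-fold that of the 48 h cells, a log2 difference of -0.64, and 49 of 53 treated cells lay below the control median. The totals of the groups overlapped widely, from -2.13 to 0.80 on the log2 scale in control cells and from -1.94 to 0.16 at 48 h, relative to the control median. Every gene is therefore given in 2 ways, as deposited, which keeps the difference in total, and after each cell was rescaled to the same total, which shows a gene relative to the rest of its own cell.

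On the deposited scale 88 genes were higher (0.956% of those compared) and 2571 were lower (27.9%), with a median difference of -0.29 over all genes. At the same total 369 genes were higher (4.01%) and 649 were lower (7.05%), with a median difference of -0.01. When median-of-ratios size factors took the place of totals, the split was 424 higher and 486 lower. All 88 genes higher as deposited were also higher at the same total, and all 649 genes lower at the same total were also lower as deposited. The other 1922 genes that were lower as deposited fell within the limit once the totals were equal, and 281 genes passed upwards only at the same total. No gene passed in opposite directions on the 2 scales.

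**Figure D1:**
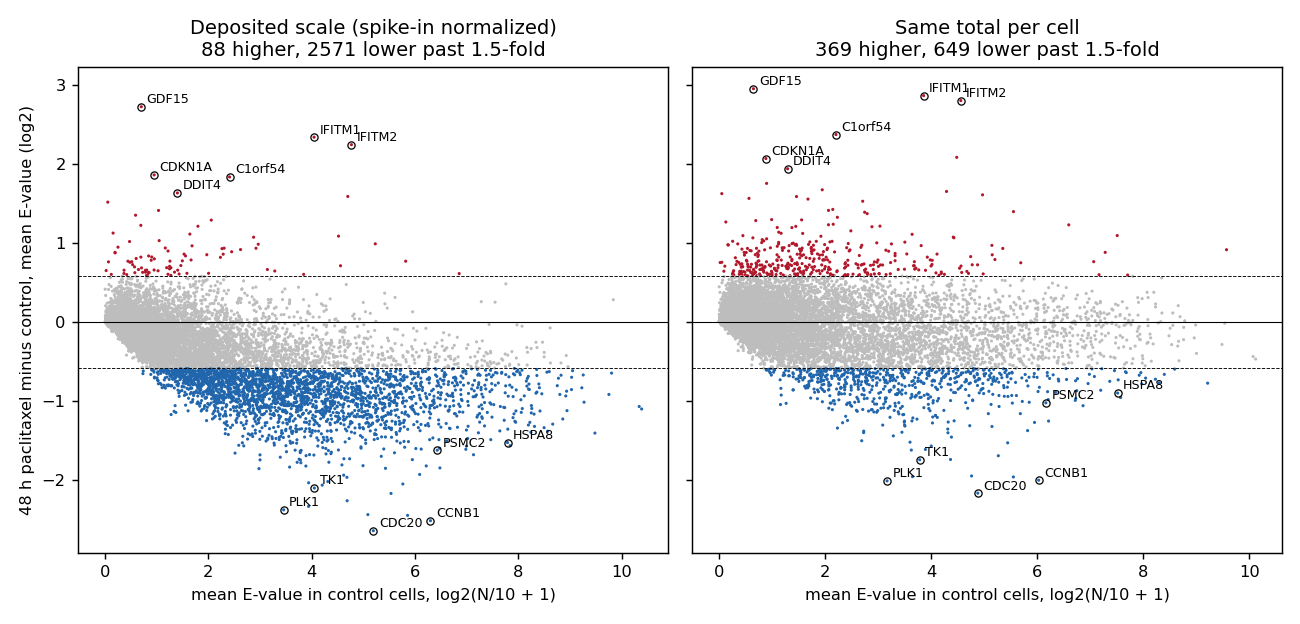
Each point is 1 of 9201 genes, with its mean E-value in control cells on the horizontal axis and the difference at 48 h on the vertical axis, both on a log2 scale. The cloud lies below 0 on the deposited scale (left, median -0.29) and is centred near 0 at the same total (right, median -0.01), with IFITM1, IFITM2 and GDF15 far above it and CDC20, PLK1 and CCNB1 far below it on both.

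How often a gene passed the limit varied with its level. Of the 628 genes with a mean E-value of 5 or more, 69.7% were lower as deposited, 11.1% were lower at the same total and 3.98% were higher at the same total. Of the 3539 genes with a mean below 1, the shares were 3.16%, 0.678% and 1.47%. Between these, lower calls at the same total were most frequent at a mean of 3 to 5 (16.3% of 1336 genes) and higher calls at a mean of 1 to 3 (6.00% of 3698). Lists of abundant genes, such as the respiratory chain or the ribosome, are to be read against the first set of shares.

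The 48 h cells carried library indices of 2 blocks of 96, with 31 cells in block 4, where all control cells also lay, and 22 cells in block 2. When the 48 h cells of block 4 were compared with those of block 2, with no difference in treatment, 624 genes were higher and 311 lower past 1.5-fold at the same total, and 1033 were higher and 79 lower as deposited. At the same total the number of genes past the limit was thus of the size of that between 48 h and control, in smaller groups of cells, while as deposited it was smaller. The direction between blocks depends only on which block is set first. Against control, as deposited, 168 genes were higher and 2170 lower with block 4 alone, and 75 and 3250 with block 2 alone. For each list the genes that passed in the same direction in each block taken alone are therefore counted as well. Over all genes, 190 were higher in each block (2.06%) and 376 were lower in each block (4.09%).

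Genes of mitosis held the largest falls, and of the lists compared theirs had the lowest median at the same total, while the proteasome had the lowest as deposited. Of 58 mitotic spindle and checkpoint genes compared, 33 were lower at the same total (7.05% of all genes), 48 were lower as deposited (27.9%) and none was higher on either scale. Their median difference was -0.68 at the same total and -1.06 as deposited, against -0.01 and -0.29 over all genes, and 28 of the 58 were lower in each index block (4.09% of all genes). The median was -0.58 with block 4 alone and -0.80 with block 2 alone. At the same total the mean over the list was -0.81 relative to control at 48 h and also negative in the other treated runs. It was -0.47 after paclitaxel for 16 h and -0.84 with the combination. After celecoxib for 2 and 16 h it was -0.66 and -1.02. All of these values share the control run, and a low level in every treated run cannot be told apart from a high level in that run.

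CDC20, the activator of the anaphase-promoting complex, showed the largest fall of any gene. Its E-value in control cells ran from 0 through a median of 5.77 to 7.75, and at 48 h from 0 through 3.05 to 6.62. The difference of the means was -2.64 as deposited and -2.16 at the same total. It was detected in 42 of 46 control cells (91.3%, exact 95% interval 79.2 to 97.6%, counting error only, as for every interval here) and in 33 of 53 treated cells (62.3%, 47.9 to 75.2%), and the groups overlapped, with 8 of 53 treated cells above the control median at the same total.

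CCNB1, cyclin B1, the partner of CDK1 that drives entry into mitosis, was detected in all 46 control cells, with E-values from 2.43 through 6.56 to 8.16. At 48 h it ran from 0 through 3.83 to 7.70 and was detected in 43 of 53 cells. Its difference was -2.51 as deposited and -2.00 at the same total, and 17 of 53 treated cells lay below the lowest control cell at the same total. PLK1, polo-like kinase 1, went from detection in 39 of 46 cells to 21 of 53, and its median E-value from 3.80 to 0, so that most treated cells had none listed. Its difference was -2.37 as deposited and -2.01 at the same total.

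Of the genes above 0 in 30% or more of each group's cells and past the limit on both scales, the 15 largest falls and 15 largest rises at the same total were named. The other mitotic genes among the falls were the E2 enzyme UBE2C (-1.96 at the same total), the chromosomal passenger kinase AURKB (-1.95), the spindle pole kinase AURKA (-1.62), securin PTTG1 (-1.53), CDK1 (-1.52) and cyclin A2, CCNA2 (-1.50). CDCA3, a trigger of mitotic entry, fell by 1.95. PBK, a mitotic kinase, fell by 1.57. STRA13, which carries the identifier of the centromere protein CENPX, fell by 1.69. Every one of the 15 largest falls passed the limit in each index block. Further members, chosen after their values were seen, were CCNB2 (-1.40), the checkpoint proteins MAD2L1 (-1.32) and BUB1B (-1.19), survivin BIRC5 (-1.13) and topoisomerase TOP2A (-0.60), all at the same total.

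The promoters of several of these genes carry CCAAT boxes and the cell cycle homology region, CHR, with the letters TTTGAA. The CHR is known from the repression of mitotic genes outside the G2 and M phases. Genes were matched to RefSeq promoters (GRCh38.p14) by Ensembl identifier, or by symbol where no identifier was known. Promoters were read over the 250 bases before the start, on both strands, for the 7243 of the 9201 genes compared that the table holds. The CHR letters stood in 589 of these (8.13%) and in 25 of 50 promoters of the mitotic list (50.0%), against 13.6% of all 27305 promoters. CCAAT stood in 36.4% of the promoters of genes compared, in 76.0% of the mitotic list and in 33.0% of all promoters. The mitotic list was assembled from known mitotic genes, so this share describes the list and not the drug. Of the genes lower at 48 h at the same total, 536 had a promoter in the table and 65 of them held TTTGAA (12.1%), as did 14 of 285 of the genes that were higher (4.91%). The stretches below, shown for the 3 genes with the largest falls, have both motifs in capitals, and CCNB1 has no TTTGAA in its window. They lie at chr1:43358871-43358935, chr16:23678804-23678873 and chr5:69167055-69167104, all on the plus strand.
CDC20: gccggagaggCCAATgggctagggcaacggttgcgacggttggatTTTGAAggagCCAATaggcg
PLK1: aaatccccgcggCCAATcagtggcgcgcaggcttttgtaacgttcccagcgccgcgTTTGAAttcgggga
CCNB1: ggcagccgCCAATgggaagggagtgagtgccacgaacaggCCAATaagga

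Genes of S phase were lower as well, by less. Of 50 genes of S phase and DNA replication, 19 were lower at the same total (7.05% of all genes). As deposited 35 were lower (27.9%), and none was higher on either scale. The median was -0.50 at the same total and -0.78 as deposited, and 16 were lower in each index block. At the same total it was -0.36 with block 4 alone and -0.70 with block 2 alone. The mean over the list, relative to control at the same total, was -0.54 at 48 h and -0.37 after paclitaxel for 16 h. It was -0.34 and -0.75 after celecoxib for 2 and 16 h and -0.59 with the combination. These runs share the control run as well. TK1, thymidine kinase 1, went from a median E-value of 4.36, between 0 and 5.85, to 1.94, between 0 and 6.57, and from detection in 95.7% of cells (85.2 to 99.5%) to 54.7% (40.4 to 68.4%). Its difference was -1.74 at the same total.

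RRM2, the small subunit of ribonucleotide reductase, fell by 1.61 at the same total, and RRM1, its large subunit, by 0.80. The helicase genes CDC45 and MCM7 fell by 1.27 and 1.25, and CDC45 was detected in 36 of 46 control cells and 17 of 53 treated cells. MCM4 fell by 1.12, and PCNA, the sliding clamp of the replicative polymerases, passed the limit narrowly at -0.60. RRM1, MCM4 and PCNA were chosen after their values were seen. Only 1 of 42 promoters of the S phase list held TTTGAA (2.38%).

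Across the 53 treated cells the mean over the mitotic list and the mean over the S phase list moved together (Pearson's r = 0.69, Spearman's rho 0.76), and across the 46 control cells r was 0.72 and rho 0.56. These are descriptions across cells, whose values share the library of each cell. The mean over the mitotic list, at the same total, lay below the control median in 41 of 53 treated cells and below the lowest control cell in 7, and 1 treated cell lay above every control cell. For the S phase list, 41 of 53 treated cells lay below the control median, 5 lay below every control cell and 5 above every control cell. The spread over cells was wider at 48 h, with an SD of 1.04 against 0.89 for the mitotic list and 0.82 against 0.51 for the S phase list.

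**Figure D2:**
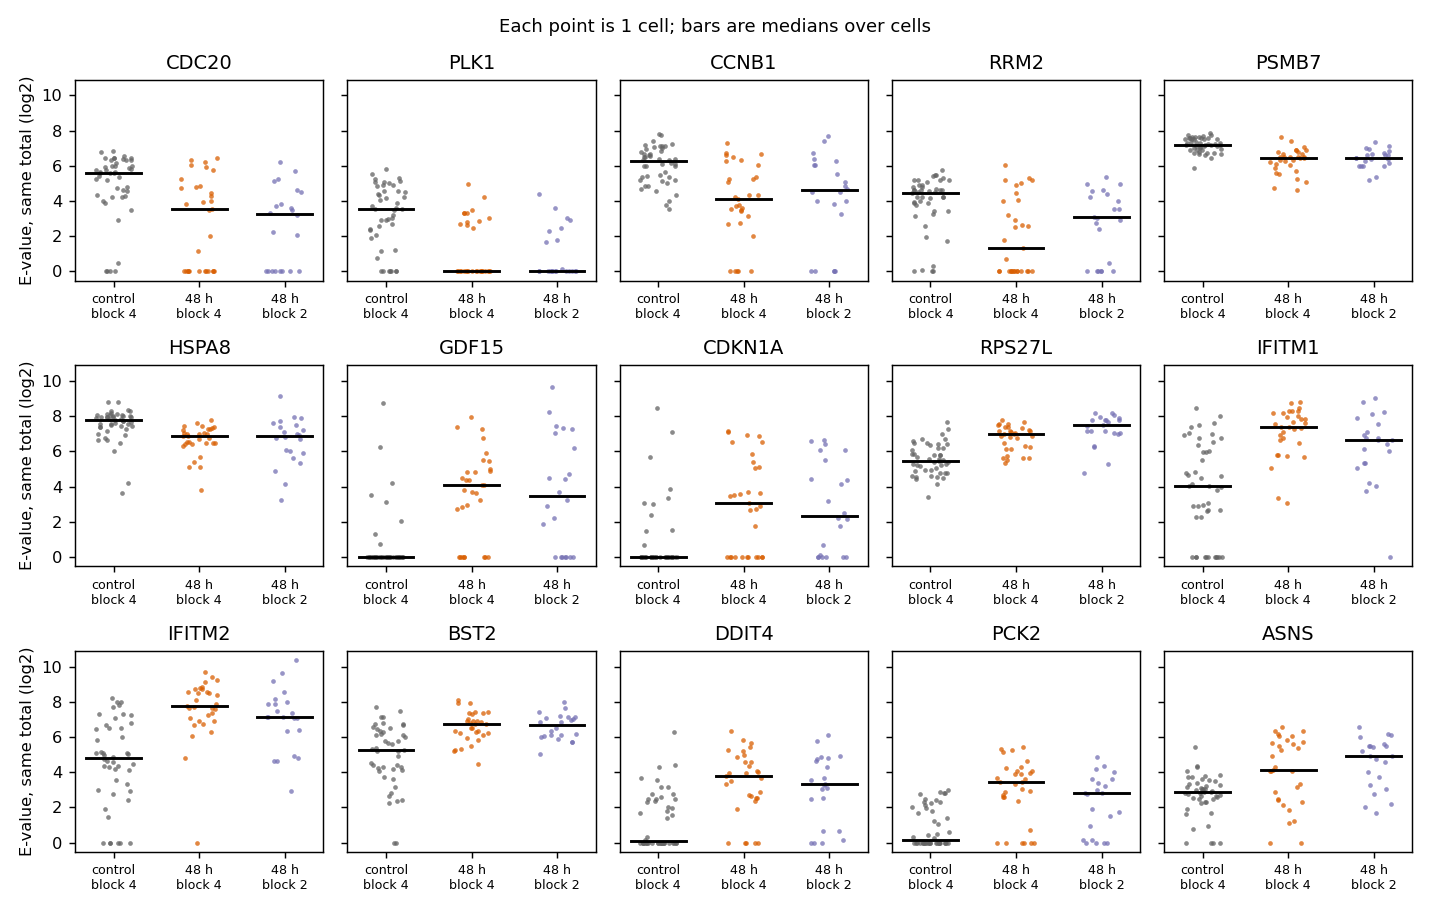
E-values at the same total (log2) of 15 genes in each cell, for the control cells (grey, block 4) and the 48 h cells of index block 4 (orange) and block 2 (purple); bars are medians over cells. CDC20, PLK1 and RRM2 have many treated cells at 0 while others keep control levels, PSMB7 shifts as a whole, and GDF15 and CDKN1A are at 0 in most control cells.

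Of the targets of p53, more rose than fell. Of 46 compared, 16 were higher at the same total (4.01% of all genes) and 5 as deposited (0.956%), none was lower at the same total and 1 was lower as deposited. Their median difference was 0.38 at the same total and 0.17 as deposited, 39 of 46 lay above the median of all genes at the same total, and 7 were higher in each index block (2.06% of all genes).

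GDF15, a secreted stress cytokine, had the largest rise of any gene compared. It was detected in 8 of 46 control cells (17.4%, 7.82 to 31.4%) and in 38 of 53 cells at 48 h (71.7%, 57.7 to 83.2%). Its E-value in control cells had a median of 0 and a highest value of 9.04, and at 48 h a median of 3.43 and a highest value of 9.15. The mean differed by 2.72 as deposited and 2.95 at the same total. The groups overlapped, and the highest control cell held nearly as much GDF15 as the highest treated cell.

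CDKN1A was detected in 11 of 46 control cells (23.9%, 12.6 to 38.8%) and 36 of 53 treated cells (67.9%, 53.7 to 80.1%). Its median E-value was 0 in control cells, with a highest of 8.75, and 2.88 at 48 h, with a highest of 7.20, and its mean rose by 1.86 as deposited and 2.07 at the same total. At 48 h GDF15 and CDKN1A were detected in the same cells more often than apart. Of 53 treated cells 30 had both, 8 had GDF15 alone, 6 had CDKN1A alone and 9 had neither, and in the control 5 of 46 had both, 3 had GDF15 alone, 6 had CDKN1A alone and 32 had neither. Across treated cells r between them was 0.76 (rho 0.77), and across control cells 0.81 (rho 0.52).

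RPS27L, a ribosomal protein paralog induced by p53, was detected in every cell of both groups. Its E-value ran from 2.94 through 6.03 to 8.16 in control cells and from 4.63 through 6.75 to 7.79 at 48 h, a difference of 0.77 as deposited and 1.40 at the same total, and 12 of 53 treated cells lay above every control cell at the same total. Reads shared with its close relative RPS27 make its level less certain. TP53I3, a quinone oxidoreductase, was higher by 0.99 at the same total, with 1.40 in block 4 and 0.42 in block 2. DDB2 of nucleotide excision repair (0.98), GADD45A (0.82), MDM2, the ligase that degrades p53 (0.79), and the death receptor TNFRSF10B (0.78) also rose at the same total and were chosen after their values were seen. None of these 5 genes passed as deposited.

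The p53 list moved against the mitotic list only loosely from cell to cell, with r = -0.31 and rho -0.32 across the treated cells. Its mean lay below the control median in 7 of 53 treated cells. Between single genes and the mitotic list, r was -0.24 for CDKN1A and -0.25 for GDF15 at 48 h. In the control cells r between the p53 and mitotic lists was -0.25 and rho 0.02.

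**Figure D3:**
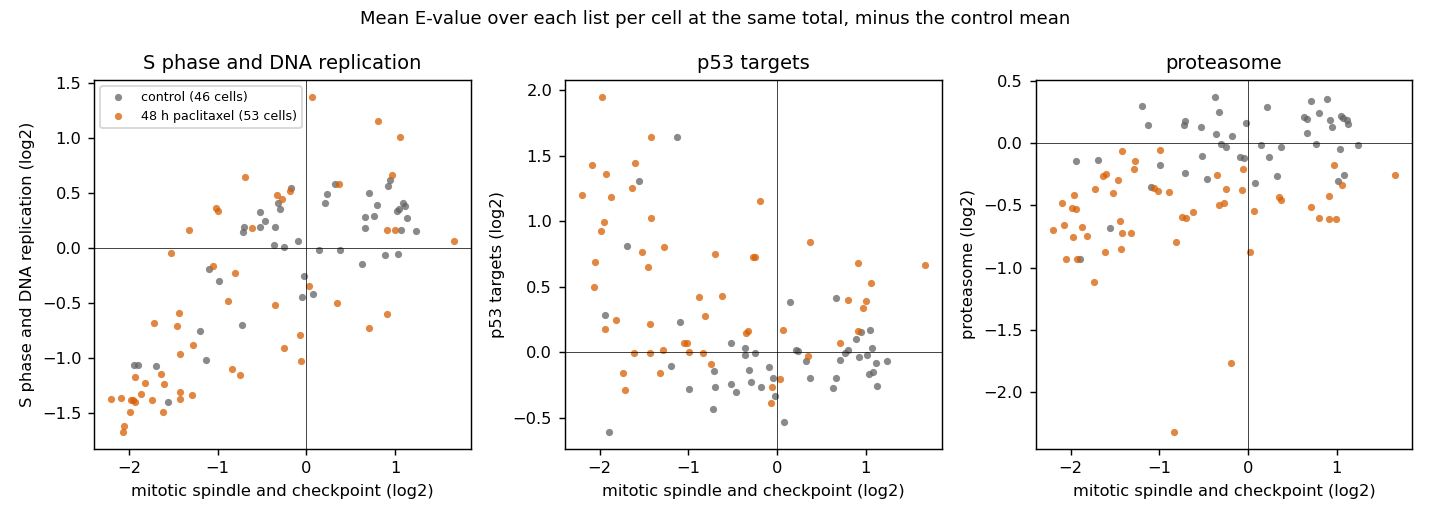
Each point is 1 cell, placed by its mean over the mitotic list (horizontal) and over the S phase, p53 or proteasome list (vertical), as log2 E-values at the same total minus the control mean. The 53 treated cells (orange) spread along the same diagonal as the 46 control cells (grey) for S phase (r = 0.69), lie mostly higher for the p53 targets and lie below the control median for the proteasome.

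Interferon response genes held the largest rises after GDF15, in a few members. Of 32 compared, 10 were higher and 1 lower at the same total (4.01% and 7.05% of all genes), 5 were higher and 4 lower as deposited (0.956% and 27.9%), and 6 were higher in each index block. The median of the list was 0.25 at the same total and 0.01 as deposited. IFITM1, IFITM2 and IFITM3 are neighbouring genes for membrane proteins that block the entry of enveloped viruses, and their sequences are so alike that reads may have been divided wrongly among them.

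IFITM1 ran from 0 through a median E-value of 4.45 to 8.95 in control cells and from 0 through 6.83 to 8.69 at 48 h. It was detected in 35 of 46 and 52 of 53 cells and rose by 2.34 as deposited and 2.86 at the same total. IFITM2 went from a median of 5.29, with a highest of 8.72, to 7.40, with a highest of 10.22, a rise of 2.24 and 2.80 in that order. In both genes the treated cells lay mostly above the control median, 49 and 48 of 53 at the same total, but 5 and 17 lay above every control cell, so the ranges overlapped. Across treated cells IFITM1 and IFITM2 moved together (r = 0.85, rho 0.88), as they did across control cells (r = 0.89, rho 0.91). IFITM3, with the highest median of the 3 in both groups, rose by 1.09 at the same total and differed by 0.48 as deposited.

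BST2, tetherin, which holds budding viruses at the cell surface, ran from 0 through 5.59 to 7.90 in control cells and from 4.36 through 6.29 to 7.66 at 48 h, so that no treated cell was at 0. It rose by 0.99 as deposited and 1.61 at the same total, with 1.61 in each index block. IFI35 was detected in 8 of 46 control cells (17.4%, 7.82 to 31.4%) and 26 of 53 treated cells (49.1%, 35.1 to 63.2%) and rose by 0.85 at the same total, with 1.15 in block 4 and 0.41 in block 2. IFNAR2, a chain of the type I interferon receptor, rose by 0.92, with 1.33 and 0.36 in those blocks. IFI30, a lysosomal thiol reductase, was the member that fell, by 0.82 at the same total, and was chosen after its values were seen.

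The rise of the IFITM genes was not particular to 48 h of paclitaxel in these values. Compared with the same control cells, IFITM1 was higher by 1.36 after paclitaxel for 16 h, by 2.01 and 1.86 after celecoxib for 2 and 16 h, and by 2.37 with the combination, at the same total. The values of IFITM2 were 1.12, 1.86, 1.48 and 2.20 in the same order. All of these values share 1 control run, and a high level in every treated run cannot be told apart from a low level in that run.

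An interferon-stimulated response element pairs GAAA with another GAAA across a pair of bases of any kind. This ISRE-like pattern stood, on either strand, in 2.15% of the promoters of genes compared, in 3.07% of all promoters and in 8 of 26 promoters of the interferon list (30.8%), a list that was assembled from known interferon-stimulated genes. The stretches below show it in capitals, together with CCAAT boxes on either strand, for IFITM1, IFITM3 and BST2, whose 2 matches overlap. They lie at chr11:313955-314014 on the plus strand, and at chr11:320881-320920 and chr19:17405736-17405770 on the minus strand.
IFITM1: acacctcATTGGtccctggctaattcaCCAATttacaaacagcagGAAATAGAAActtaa
IFITM3: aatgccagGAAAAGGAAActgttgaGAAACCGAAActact
BST2: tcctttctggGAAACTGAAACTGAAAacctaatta

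Targets of the integrated stress response, in which ATF4 raises amino acid synthesis and uptake, rose in part. Of 42 compared, 8 were higher and none lower at the same total (4.01% and 7.05% of all genes). As deposited 4 were higher and 6 lower (0.956% and 27.9%). The median was 0.29 at the same total and -0.18 as deposited, and 4 members were higher in each block. As deposited it was -0.0016 with block 4 alone and -0.39 with block 2 alone, so its direction depended on scale and block. Relative to control at the same total, the mean over the list was 0.32 at 48 h and -0.16 after paclitaxel for 16 h. It was higher with celecoxib, at 1.00 and 1.26 after 2 and 16 h, and at 0.75 with the combination.

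DDIT4, an inhibitor of mTORC1 signalling, was detected in 23 of 46 control cells and 45 of 53 treated cells. Its median E-value went from 0.10, with a highest of 6.56, to 3.25, with a highest of 6.20, a rise of 1.63 as deposited and 1.94 at the same total. PCK2, the mitochondrial phosphoenolpyruvate carboxykinase, had a median of 0.13 and a highest value of 3.57 in control cells and a median of 2.57 and a highest value of 5.94 at 48 h. It rose by 1.41 as deposited and 1.75 at the same total. At the same total 27 of 53 treated cells lay above every control cell.

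ASNS, asparagine synthetase, had a median E-value of 3.28, between 0 and 5.87, in control cells and of 4.28, between 0 and 7.00, at 48 h, and rose by 0.98 as deposited and 1.53 at the same total. CHAC1, a glutathione-degrading enzyme, was detected in 9 of 46 and 25 of 53 cells and rose by 0.93 at the same total. PHGDH, the first enzyme of serine synthesis, rose by 0.86, with 1.24 in block 4 and 0.33 in block 2. DDIT3, the transcription factor CHOP, chosen after its values were seen, rose by 0.63 at the same total and differed by 0.19 as deposited.

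The stress response list divided the treated cells. Its mean at the same total lay above every control cell in 22 of 53 treated cells and below the control median in 23, with an SD over cells of 0.72 against 0.33 in the control. DDIT4 and ASNS did not move closely together across the treated cells (r = 0.21, rho 0.19).

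ATF4 with C/EBP partners binds C/EBP-ATF response elements, written here as TGATGNAA. The letters stood on either strand in 1.28% of the promoters of genes compared, in 3.19% of all promoters and in 3 of 24 promoters of the stress response list (12.5%), again a list of known targets. They are shown in capitals for ASNS, at chr7:97872454-97872493 on the minus strand, and for CHAC1, where they read on the opposite strand, at chr15:40953251-40953280 on the plus strand. The window of DDIT4 and that of PCK2 held no such letters.
ASNS: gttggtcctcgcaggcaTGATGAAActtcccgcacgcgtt
CHAC1: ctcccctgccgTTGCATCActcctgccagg

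Subunits of the proteasome, the protease that degrades ubiquitylated proteins, were lower together. All 31 compared were lower as deposited, 14 were lower at the same total, none was higher, and none lay above the median of all genes at the same total. The median was -1.16 as deposited and -0.55 at the same total, and 11 were lower in each index block. Of these subunits 24 had a mean E-value of 5 or more, a range in which 69.7% of genes were lower as deposited and 11.1% at the same total.

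PSMB7, a catalytic subunit of the core, was detected in every cell and had little spread. Its E-value ran from 4.89 through 7.46 to 8.77 in control cells and from 3.85 through 6.14 to 7.31 at 48 h, and 50 of 53 treated cells lay below the control median at the same total. It fell by 1.49 as deposited and 0.86 at the same total. PSMC2 and PSMC1, ATPases of the base, fell by 1.02 and 0.88 at the same total, and PSMD11 of the lid by 0.93. The mean over the list lay below the control median in all 53 treated cells at the same total, against 41 of 53 for the mitotic list. It ran from -2.32 through -0.51 to -0.05 relative to the control mean. The other treated runs were alike, with 54 of 56 cells below after paclitaxel for 16 h and 59 of 59 with the combination. After celecoxib for 2 and 16 h these were 63 of 63 and 61 of 61. All of these values share the control run, and a low level in every treated run cannot be told apart from a high level in that run.

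Heat shock proteins and their co-chaperones also fell. Of 35 compared, 10 were lower and none higher at the same total (7.05% and 4.01% of all genes), with a median of -0.33. As deposited 24 were lower (27.9%), with a median of -0.83. At the same total 7 were lower in each block. The mean over the list at the same total lay below the control median in 46 of 53 cells at 48 h. In the other treated runs it did so in 50 of 56 cells after paclitaxel for 16 h and 41 of 59 with the combination. After celecoxib for 2 and 16 h these were 55 of 63 and 40 of 61. All share the control run, and a low level in every treated run cannot be told apart from a high level in that run. HSPA8, the constitutive cytosolic HSP70, ran from 2.14 through 8.01 to 9.29 in control cells and from 2.36 through 6.48 to 8.22 at 48 h, and fell by 1.52 as deposited and 0.90 at the same total. HSPH1 fell by 1.04, the HSP90 activator AHSA1 by 1.00 and HSPBP1 by 0.92 at the same total. HSP90AB1 and HSP90AA1, the cytosolic HSP90 isoforms, fell by 0.73 and 0.59, the latter just past the limit, and were chosen after their values were seen.

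Of 44 nucleolar factors of ribosome biogenesis, 11 were lower and none higher at the same total (7.05% and 4.01% of all genes), with a median of -0.32. As deposited 33 were lower (27.9%), with a median of -0.80. The mean over the list at the same total lay below the control median in 48 of 53 cells at 48 h. In the other treated runs it did so in 52 of 56 cells after paclitaxel for 16 h and 55 of 59 with the combination. After celecoxib for 2 and 16 h these were 60 of 63 and 47 of 61. The limit of the shared control run holds here as well. DKC1, the pseudouridine synthase of box H/ACA particles, and NOP16 both fell by 0.93, the helicase DDX56 by 0.91 and UTP4 of the small subunit processome by 0.88. NPM1, nucleophosmin, chosen after its values were seen, fell by 0.64. Few of the proteins that this pathway assembles into ribosomes passed at the same total. Of 78 cytosolic ribosomal proteins 1 was higher, RPL3 by 0.60, and 1 was lower, FAU by 0.61, at the same total, with a median of 0.07, and 35 were lower as deposited, with a median of -0.56. Of the 78, 76 had a mean E-value of 5 or more, a range in which 69.7% of genes were lower as deposited.

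Of 38 genes of RNA polymerase II and general transcription, 19 were lower as deposited (27.9% of all genes), with a median of -0.57. Only POLR2C, a subunit of the polymerase core, was lower at the same total, by 0.91 (median of the list -0.20). POLR2I, POLR2D and POLR2L differed by -0.52, -0.50 and -0.50 and stayed within the limit at the same total.

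The tubulins, which carry the target of the drug, were divided. Of 12 compared, 3 were lower and 1 was higher at the same total (7.05% and 4.01% of all genes), with a median of -0.28. As deposited 7 were lower and 1 higher (27.9% and 0.956%), with a median of -0.78. TUBA1A, an α-tubulin, ran from 0 through 4.27 to 6.62 in control cells and from 0 through 4.56 to 6.42 at 48 h, and rose by 0.60 as deposited and 1.11 at the same total. The major α-tubulin TUBA1B fell by 0.78 at the same total, from a median E-value of 8.63 to 7.14 as deposited, the β-tubulin TUBB2A fell by 1.01 and the γ-tubulin TUBG1, which nucleates microtubules, by 0.67. TUBA1A and TUBA1B are close paralogs, and reads divided between them make both levels less certain. TUBG1 was at -0.44 with block 4 alone and -0.99 with block 2 alone.

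Microtubule-associated proteins moved little at the same total, with 1 of 21 lower (7.05% of all genes), MAPRE2 by 0.61, and a median of -0.06. As deposited 7 were lower (27.9%), with a median of -0.46. STMN1, stathmin, which takes microtubules apart, differed by -0.45 and passed only as deposited, by -1.08. Among 50 genes of actin and adhesion, 5 were lower and 4 higher at the same total, shares near those of all genes (7.05% and 4.01%). As deposited 19 were lower and 3 higher (27.9% and 0.956%). The medians were -0.48 as deposited and -0.07 at the same total, the scale of the values that follow. ANXA2, an annexin, and ACTG1, cytoplasmic γ-actin, fell by 0.99 and 0.95, and ACTB and profilin PFN1, chosen after their values were seen, each by 0.77. CDC42EP5, an effector of CDC42, rose by 1.29 and RRAS, a small GTPase, by 1.21.

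**Figure D4:**
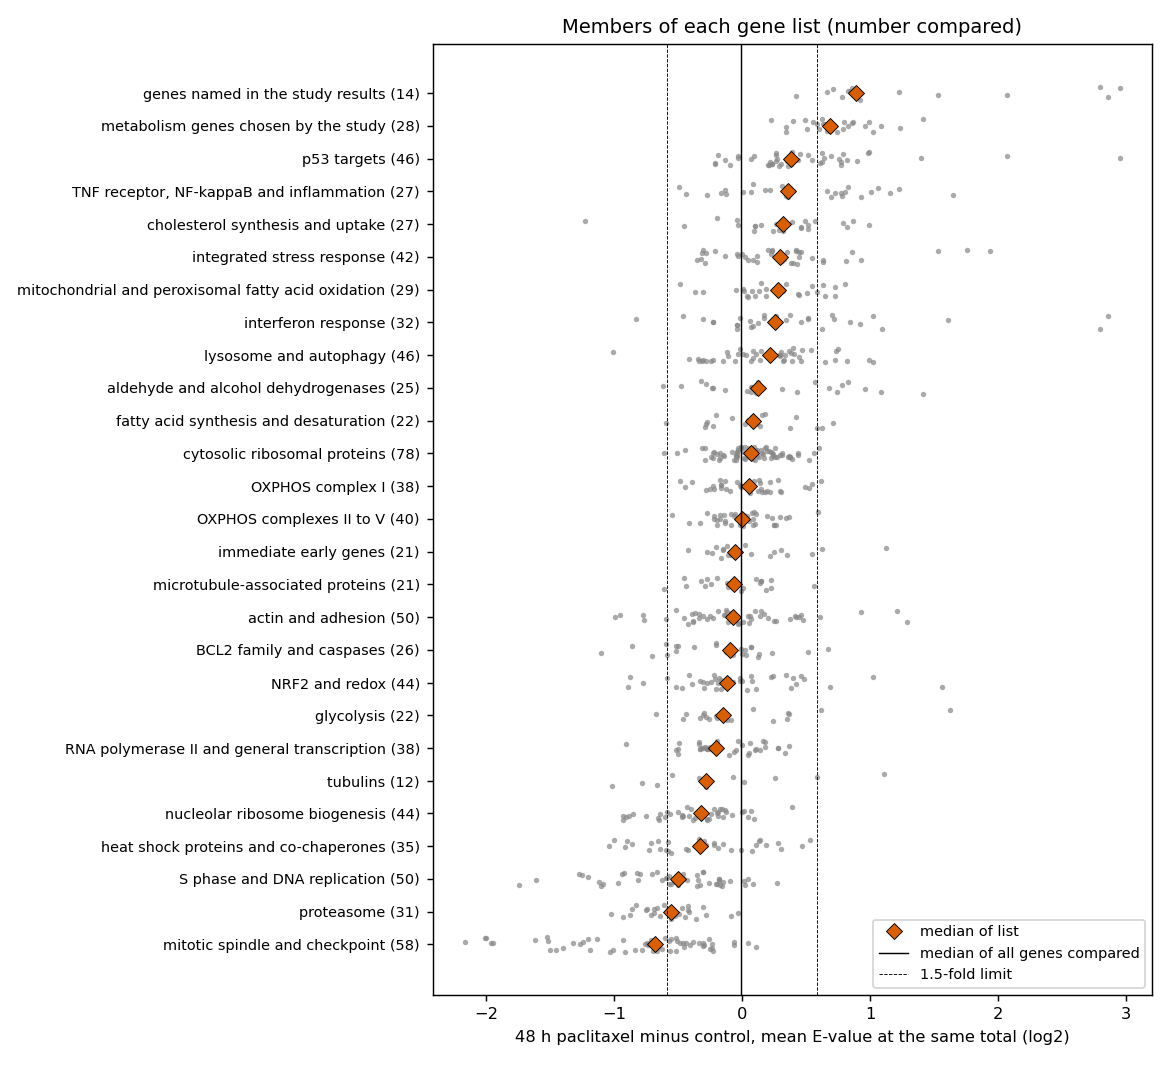
Each grey point is 1 gene of the list named at the left, placed by its difference at 48 h at the same total (log2), with orange diamonds for the median of each list, a solid line for the median of all genes and dashed lines for the 1.5-fold limits. The medians run from -0.68 for the mitotic list to 0.89 for the genes named in the results of the study, which were picked on these cells.

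Genes of lipid metabolism rose in small numbers, all at the same total and none as deposited. Of 27 genes of cholesterol synthesis and uptake 4 were higher and 1 lower at the same total (4.01% and 7.05% of all genes). As deposited 3 were lower (27.9%). The medians were 0.32 and 0.09, and at the same total 4 were higher in each block. NPC2 and NPC1, which carry cholesterol out of lysosomes, rose by 0.99 and 0.82, and TM7SF2, a sterol reductase, by 0.87. ACAT2, the cytosolic thiolase at its start, fell by 1.23, with -0.59 in block 4 and -2.12 in block 2.

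Of 22 genes of fatty acid synthesis and desaturation 3 were higher and 1 lower at the same total (4.01% and 7.05% of all genes). As deposited 4 were lower (27.9%). SCD, the Δ9-desaturase, rose by 0.71, with 0.72 and 0.70 in the blocks. FADS1, the Δ5-desaturase, rose by 0.63, with 1.11 in block 4 and -0.047 in block 2. ACACA, acetyl-CoA carboxylase, differed by 0.42 and stayed within the limit. Of 29 genes of mitochondrial and peroxisomal fatty acid oxidation 6 were higher and none lower at the same total (4.01% and 7.05% of all genes). As deposited 3 were lower (27.9%). Among the 6 were ECI1 (0.72), the trifunctional protein subunit HADHA (0.72) and PHYH (0.65), but only 1 of the 6 was higher in each block.

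Of 25 aldehyde and alcohol dehydrogenases 7 were higher and 1 lower at the same total (4.01% and 7.05% of all genes). As deposited 4 were higher and 5 lower (0.956% and 27.9%). The medians were 0.12 at the same total and -0.04 as deposited. HSD17B14 had a median E-value of 2.58, between 0 and 4.84, in control cells and of 3.35, between 0 and 5.11, at 48 h, and rose by 0.93 as deposited and 1.41 at the same total, with 1.41 in each block. ALDH1A1, a retinaldehyde dehydrogenase, was detected in 19 of 46 and 38 of 53 cells and rose by 1.09. HSD17B8 rose by 0.96 and DHRS12 by 0.83. The genes named here are also among the metabolism genes that the study chose on these cells, so their direction is not independent evidence.

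Few genes of the respiratory chain passed the limit once the totals were equal. Of 38 complex I subunits and 40 subunits of complexes II to V, 1 each was higher and none was lower at the same total, with medians of 0.05 and 0.00, whereas 18 and 23 were lower as deposited. Of these subunits 33 and 35 had a mean E-value of 5 or more, a range in which 69.7% of genes were lower as deposited. Those that passed at the same total were NDUFV1, by 0.62, and the ATP synthase inhibitor ATPIF1, by 0.60. Of 22 genes of glycolysis 2 were higher and 1 lower at the same total (4.01% and 7.05% of all genes). There LDHA, lactate dehydrogenase A, fell by 0.67, PFKM rose by 0.61 and ALDOC by 1.62. As deposited 11 of the 22 were lower and 1 higher (27.9% and 0.956%), with a median of -0.63. ALDOC, an aldolase, was detected in 1 of 46 control cells (2.17%, 0.055 to 11.5%) and 24 of 53 treated cells (45.3%, 31.6 to 59.6%).

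Among 44 genes of the NRF2 pathway and redox control 3 were higher and 4 lower at the same total, shares near those of all genes (4.01% and 7.05%). As deposited 2 were higher and 24 lower (0.956% and 27.9%). The medians were -0.12 at the same total and -0.63 as deposited. Of the 44, 16 had a mean E-value of 5 or more, a range in which 69.7% of genes were lower as deposited. TXNIP, which binds and inhibits thioredoxin, was detected in 15 of 46 and 38 of 53 cells and rose by 1.35 as deposited and 1.56 at the same total. GCLM, the modifier subunit of glutathione synthesis, fell by 0.88 and MSRB1, a methionine sulfoxide reductase, by 0.89, while MSRB2, its mitochondrial relative, rose by 1.02.

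The 28 metabolism genes that the study chose and the 14 genes that its results name were picked on these cells, so their direction is not independent evidence. Of the former 21 were higher and none lower at the same total, with a median of 0.69, 6 were higher as deposited, and 9 were higher in each block. Their median was 0.80 with block 4 alone and 0.50 with block 2 alone. PHYHD1 rose by 1.24, with 1.73 and 0.55 in the blocks. Of the latter 13 were higher at the same total, 7 as deposited and 8 in each block, and the other was ACACA. Several genes of both sets also stand in other lists, among them GDF15, CDKN1A, IFITM1, ASNS, SCD and ALDH1A1, where the same limit holds.

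Of 27 genes of TNF receptor signalling, NF-κB and inflammation 13 were higher and none lower at the same total (4.01% and 7.05% of all genes). As deposited 4 were higher and 5 lower (0.956% and 27.9%). The medians were 0.36 and 0.19, and at the same total 8 were higher in each block. The genes named in this paragraph were among those that the study picked as raised on these cells, so their direction is not independent evidence. LGALS1, galectin-1, a secreted lectin, ran from 0 through 4.81 to 8.10 in control cells and from 0 through 5.70 to 8.91 at 48 h, and rose by 1.09 as deposited and 1.65 at the same total. S100A4, a calcium-binding protein, rose by 0.61 and 1.23, S100A11 by 0.92 and 1.15 and ANXA1, annexin A1, by 0.71 and 1.07 in that order. TNFRSF1A, the main TNF receptor, rose by 0.78 at the same total, PTGR1, which breaks down prostaglandins and leukotrienes, by 0.67 and the secreted serpin SERPINF1 by 0.83. S100A11 was detected in 23 of 46 and 32 of 53 cells and had an SD of 2.93 and 3.16 over cells, so its rise was small beside its spread. In the authors' annotation of cell states, S100A11 and ANXA1 were higher than control in the treated cells of the control-like state and not in those of the repression state.

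Of 21 immediate early genes 2 were higher and none lower at the same total (4.01% and 7.05% of all genes), with a median of -0.05. The 2 were the phosphatase DUSP6, by 1.12, and the antiproliferative BTG2, by 0.63. As deposited 1 was higher and 2 were lower (0.956% and 27.9%), with a median of -0.27. Of 26 genes of the BCL2 family and the caspases 5 were lower and 1 higher at the same total (7.05% and 4.01% of all genes). As deposited 10 were lower (27.9%), and the medians were -0.10 and -0.40. BID, a BH3-only protein, fell by 0.86 and HTRA2, a mitochondrial protease, by 0.71. Of 46 genes of lysosome and autophagy 7 were higher and 1 lower at the same total (4.01% and 7.05% of all genes), with a median of 0.22. As deposited none was higher and 10 were lower (0.956% and 27.9%), with a median of -0.18. SUMF2 rose by 1.02 and ATG5, of the autophagosome conjugation system, fell by 1.00.

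Several of the 15 named rises belonged to no list. C1orf54 ran from 0 through 2.68 to 5.62 in control cells and from 0 through 4.53 to 6.97 at 48 h, and rose by 1.84 as deposited and 2.37 at the same total. In the other treated runs, in the order given for IFITM1, it was higher than in the same control cells by 1.05, 2.25, 2.01 and 2.52 at the same total. SNCG, γ-synuclein, ran from 0 through 5.28 to 8.45 and from 0 through 7.29 to 8.92, and rose by 1.59 and 2.08. TRAPPC6A (1.67), of a vesicle tethering complex, the phospholipase PLA2G16 (1.59), BEX2 (1.56) and CA11 (1.42), which resembles carbonic anhydrases, complete them, all at the same total. PHF19, a subunit associated with Polycomb repressive complex 2, fell by 2.26 as deposited and 1.74 at the same total, and 50 of 53 treated cells lay below its control median at the same total.

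POSTN, periostin, a matrix protein, was the only gene that 50% or more of the cells of one group and under 10% of the other expressed above 0. It was detected in 23 of 46 control cells (50.0%, 34.9 to 65.1%) and 0 of 53 treated cells, which allows a share of up to 6.72%, at a mean E-value of 0.42 in control cells. It was also rare in the other treated runs, in 7.14%, 4.76%, 1.64% and 6.78% of cells in that order, so its detection set the control run apart from every other run.

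The authors' deposited annotation placed 28 of the 53 treated cells in a control-like state and 25 in a state of transcriptional repression, and 45 of 46 control cells in the control-like state. Relative to the control at the same total, IFITM1 differed by 3.06 in the control-like and 2.64 in the repression cells, GDF15 by 3.03 and 2.87, CDC20 by -2.02 and -2.33 and PSMB7 by -0.81 and -0.92. Other genes were divided by state. CDK1 differed by -0.48 and -2.68, TK1 by -0.99 and -2.58, CCNB1 by -1.47 and -2.59, SNCG by 3.19 and 0.85 and ASNS by 1.86 and 1.16. S100A11 (2.33 and -0.17), ANXA1 (2.28 and -0.29) and ACACA (0.94 and -0.15) were past the limit in the control-like cells only and stayed within it in the repression cells. The states were assigned from the E-values of the same cells.

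After 16 h at the same dose, in 56 cells of another run, the same genes lay at other distances from the same control cells. GDF15 differed, at the same total, by 0.66 at 16 h and 2.95 at 48 h, CDKN1A by 0.44 and 2.07, PCK2 by 0.28 and 1.75, ASNS by 0.20 and 1.53 and RPS27L by 0.60 and 1.40. CDC20 differed by -1.86 and -2.16, PLK1 by -1.54 and -2.01, CCNB1 by -1.30 and -2.00, RRM2 by -0.72 and -1.61 and PSMB7 by -0.25 and -0.86. HSPA8 lay further down at 16 h, at -1.50, than at 48 h, at -0.90. The mean over the p53 list lay below its control median in 26 of 56 cells at 16 h and in 7 of 53 at 48 h, and that over the mitotic list in 40 of 56 and 41 of 53. The times were separate runs, so time and run cannot be told apart. Several of these changes were also present in the runs without paclitaxel. After celecoxib for 16 h GDF15 was higher than in the same control cells by 3.39 at the same total and ASNS by 2.25, and CDC20 differed by -2.32.

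**Figure D5:**
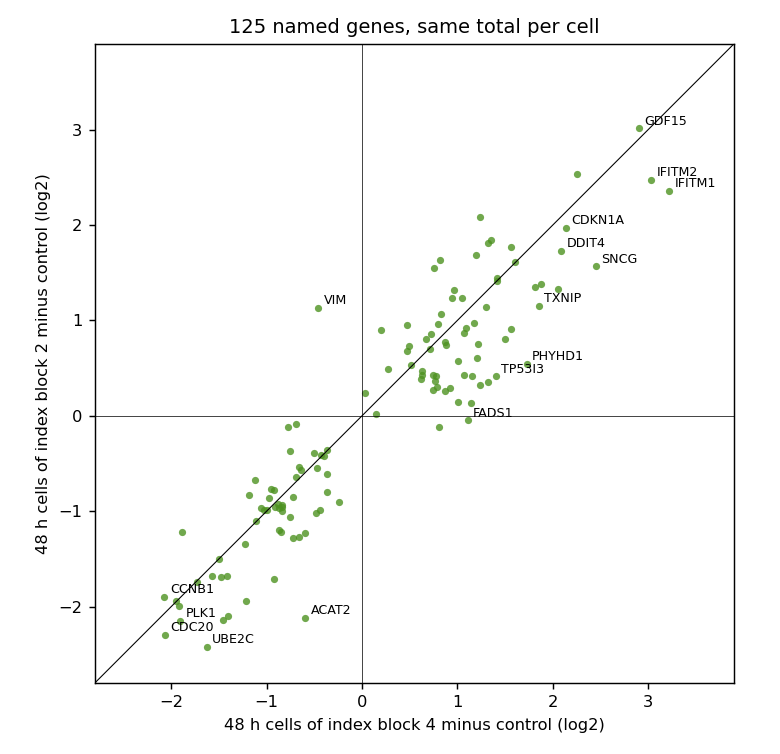
Each point is 1 of the 125 genes named by rule, with its difference from control at the same total for the 48 h cells of index block 4 (horizontal) and block 2 (vertical), both log2, and the diagonal marks equal values. GDF15, CDKN1A, CDC20, PLK1 and CCNB1 lie near the diagonal, while ACAT2, FADS1, PHYHD1 and VIM lie well off it.

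How far the index blocks differed varied from gene to gene. All 30 of the named rises and falls passed the limit in each block at the same total. GDF15 was at 2.90 in block 4 and 3.02 in block 2, CDKN1A at 2.14 and 1.97, IFITM1 at 3.22 and 2.36, IFITM2 at 3.03 and 2.47, SNCG at 2.45 and 1.57, CDC20 at -2.07 and -2.29 and PSMB7 at -0.92 and -0.78. VIM was at -0.46 and 1.14. The median total of the 48 h cells lay 0.59 below the control median on the log2 scale in block 4 and 0.84 below it in block 2, and the median number of genes detected was 6270 and 6514.5. The part of the blocks in these differences was not tested.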

How the data were processed

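Single A2780 cells were captured with the Fluidigm C1 system and sequenced after Smart-seq2. The authors trimmed reads with Trim Galore, used RSEM 1.3.0 with Bowtie2 to estimate TPM for GENCODE 28 (hg38) plus 3 spike-in sequences, and normalized TPM to the most abundant spike-in. The deposited values are log2 E-values of 9664 genes in cells and genes that passed the authors' filters, with 53 cells at 48 h and 46 control cells of the 65 and 57 labelled. From these the linear values were recovered and each cell was rescaled to the median total of both groups. Genes above 0 in more than 30% of cells of at least one group were compared by the difference of mean E-values. A gene was called past 1.5-fold. Reads per cell are unknown and doublets were not called, since a caller needs counts. With 1 run a condition no test was made. The steps were tested on simulated data. Members and gene lists (29 lists, 969 of 1136 symbols listed) were chosen with earlier results of these data known. Named genes were the 15 largest rises and 15 largest falls at the same total (above 0 in 30% of cells or more in both groups, past the limit on both scales), the genes the study names, up to 4 members of each other list, and genes above 0 in 50% or more of one group and under 10% of the other. Exceptions are marked, and some named genes are not reported here. Promoters are from RefSeq (GRCh38.p14). Alternatives changed the scaling, the mean, the pseudocount, the detection limit, the fold limit and the index block. Of the genes, 9643 identifiers matched GENCODE 44. Analyses used Python 3.11.15, pandas 2.3.3, numpy 2.4.6 and scipy 1.17.1.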

Additional observations from a re-analysis of the deposited data

Results flagged for a closer look

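Several genes lay past 1.5-fold below the control at 16 h of paclitaxel and past 1.5-fold above it at 48 h. The difference between the times was not tested, and the times were separate capture runs that share the control cells. As deposited these were HSD17B14 (-0.63 at 16 h and 0.93 at 48 h), PLTP, a phospholipid transfer protein (-0.77 and 0.67), RRAS (-0.68 and 0.65), S100A11 (-0.92 and 0.92), TUBA1A (-0.70 and 0.60), PHYHD1 (-0.77 and 0.86) and ANXA4, an annexin (-0.68 and 0.60). At the same total they were TP53I3 (-0.78 and 0.99), detected in 84.8% of control cells, 55.4% of cells at 16 h and 88.7% at 48 h, and CORO1B, an actin-binding coronin (-0.83 and 0.61), which was at 1.08 in index block 4 and -0.055 in block 2 at 48 h. PLTP, ANXA4 and CORO1B were chosen after their values were seen.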

How the results depend on the processing

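Counts past the limit moved with several settings. As deposited, 595 genes were higher and 4105 lower with a ratio of linear means (median -0.51), 444 and 4234 with a pseudocount of 1 in place of 10 (median -0.52), 230 higher with the median over cells, 168 higher with index block 4 alone and 19 and 807 at a 2-fold limit, and the median was -0.39 with detection in 50% of cells. At the same total, 2051 genes were higher with a ratio of linear means (median 0.12), 1111 and 1976 passed with a pseudocount of 1, 620 and 1152 with the median over cells, 57 and 107 at 2-fold, and 980 were lower with block 2 alone. The cause of these shifts was not tested. With median-of-ratios size factors over 737 genes, 424 genes were higher and 486 lower. FADS1 and CORO1B changed sign with block 2 alone (-0.047 and -0.055). Of the 15 largest falls PTTG1 and CDK1 dropped within the limit at the same total under an alternative, at -0.21 and -0.56 at the least, and the 15 rises stayed past it at the same total in all 11 alternatives. No cell of either group had a well note other than 1 cell, so that alternative gave no value. No paired analysis was possible because the result comes from no test. Totals set to the control or the 48 h median, added after seeing the data, gave 451 and 316 genes higher and 780 and 554 lower. Without read counts, detection at low levels limits all counts.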
